A study of Homo sapiens with 6 samples.

Results

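The distal block of the short arm of chromosome 2 was taken as every annotated gene on chromosome 2 that starts below position 54400000 of the GRCh38 build. It held 458 of the 30330 genes in the files, and the rest of chromosome 2 held 1504. The block was selected on the difference between the resistant and the control libraries described here, so that difference is given as a description with no test and no p-value. Of the 458 genes, 352 reached a normalized read count of 1 in at least 3 libraries and were tested with all other genes, and 106 did not.

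The 6 RNA-seq libraries came from NCI-H1975, an established line of human lung adenocarcinoma cells whose growth depends on a mutant epidermal growth factor receptor (EGFR). Osimertinib is an irreversible inhibitor of that receptor. The 3 resistant libraries came from H1975/OSI, a derivative selected over 7 months at 0.03, 0.1, 0.3, 1 and 3 µM osimertinib, and the 3 control libraries came from NCI-H1975. The titles call the first group drug, and the labels do not say whether osimertinib was present at harvest. The control label names no vehicle and no passage-matched culture. The resistant cells are 1 derivative, and nothing says whether it is 1 clone. Nothing says either that the 3 libraries of a group came from separate cultures, so the spread between them may be technical.

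Genes of one chromosome arm lie on one DNA molecule, but each has its own promoter and its own level of transcription. The distal short arm of chromosome 2 carries the mismatch repair gene MSH6, the ribonucleotide reductase subunit gene RRM2, and EML4 and ALK, which an inversion joins into a fusion kinase in some lung adenocarcinomas. Only RNA was measured here, so nothing is stated about the DNA of the block.

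Promoters of a few members are shown to set their sequences beside a difference that ran along the block. RefSeq promoters on GRCh38.p14 were matched to 243 of the 458 members by symbol. The 150 bases before the start are shown for 4 members, picked after their values were seen: CAD, PPP1CB, TRMT61B and FBXO11. CAD, PPP1CB and TRMT61B lie close together, so the 4 do not sample the length of the block. Capitals mark matches on either strand to the GC box (GGGCGG), the CCAAT box (CCAAT), the TATA box (TATAAA) and an ETS core (CCGGAAG), and all are written 5′ to 3′ on the gene's strand. CAD lies on the plus strand at chr2:27217219-27217368, PPP1CB on the plus strand at chr2:28751454-28751603, TRMT61B on the minus strand at chr2:28870310-28870459 and FBXO11 on the minus strand at chr2:47906499-47906648.
CAD: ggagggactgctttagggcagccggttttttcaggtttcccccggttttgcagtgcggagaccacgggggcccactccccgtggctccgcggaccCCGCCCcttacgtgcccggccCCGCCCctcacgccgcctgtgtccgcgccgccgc
PPP1CB: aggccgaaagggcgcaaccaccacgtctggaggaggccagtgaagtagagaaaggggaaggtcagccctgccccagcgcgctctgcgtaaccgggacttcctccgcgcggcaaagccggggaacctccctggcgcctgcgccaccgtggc
TRMT61B: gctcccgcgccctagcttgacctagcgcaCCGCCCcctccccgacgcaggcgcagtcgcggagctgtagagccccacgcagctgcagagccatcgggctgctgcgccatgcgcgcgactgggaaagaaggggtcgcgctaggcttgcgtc
FBXO11: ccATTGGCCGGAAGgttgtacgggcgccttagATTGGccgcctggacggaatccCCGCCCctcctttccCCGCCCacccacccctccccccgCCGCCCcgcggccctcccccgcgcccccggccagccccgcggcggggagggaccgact

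The CAD window held 2 GC boxes and the TRMT61B window held 1. The FBXO11 window held 3 GC boxes, 2 CCAAT boxes and 1 ETS core that adjoins a CCAAT box. In the PPP1CB window none of the 4 motifs was matched. CAD encodes the enzyme that starts pyrimidine synthesis, TRMT61B a mitochondrial tRNA methyltransferase and FBXO11 a subunit of a ubiquitin ligase. Their log2 differences, resistant minus control, were -0.54, -0.47 and -0.55. PPP1CB, a catalytic subunit of protein phosphatase 1, stood at 0.04. Because the 4 were picked with their values known, no link between motif and difference is read from them.

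Over the whole 300-base windows, the members' promoters resembled those of the rest of the chromosome. A GC box was present in 60.5% of the 243 member promoters, in 62.0% of 826 promoters on the rest of chromosome 2 and in 44.9% of all 35097 promoters. CCAAT occurred in 35.0%, 35.2% and 34.6%, and TATAAA in 5.35%, 6.42% and 11.5%. The ETS core occurred in 16.9%, 13.4% and 10.3%. Among members, it was present in 22.5% of the 129 promoters of genes called lower and in 11.4% of the 88 of tested genes not called lower. CCAAT was present in 41.1% and 29.5% of these, the GC box in 62.0% and 67.0%, and TATAAA in 4.65% and 6.82%. These shares describe the windows only.

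Each library held 15174126 to 16588479 reads as recovered from the deposited values. Resistant 1 was farther from its 2 group members than they were from each other. On recovered reads, a comparison of 2 libraries gave a chi-square per gene of 10.8 and 12.1 for its pairs, of 2.32 for resistant 2 against resistant 3, and of 2.43 to 3.66 among the controls. The keratins KRT7, KRT8, KRT18 and KRT19 stood at 4872 or more in all 6 libraries. KRT8, KRT18 and KRT19 were called lower in the resistant libraries, at -0.51, -0.41 and -1.18, and KRT7 was not called. The 11 epithelial markers summed to 60122 to 63654 in the controls and 42923 to 50329 in the resistant libraries. NKX2-1, the lung lineage factor, was called higher, with a mean of 287 in the controls and 461 in the resistant libraries. MUC1, of the same list, was also called higher, with means of 1297 and 2446. The 6 fibroblast and mesenchymal markers with a row summed to 30472 to 32285 in the controls and 54464 to 63341 in the resistant libraries, and COL1A2 moved from a mean of 698 to 29275. The other large values of that list were not called, with VIM at means of 25767 and 23212 and COL1A1 at 4808 and 4963. The 4 endothelial markers summed to 290 to 332 in the controls and 557 to 759 in the resistant libraries, where CDH5 had means of 126 and 579 and PECAM1 was called lower, with 181 and 83.3. The 3 leukocyte markers with a row summed to 26.0 to 59.1. Reads on mitochondrial genes made up 6.88 ± 0.440% of the control libraries and 5.53 ± 0.178% of the resistant libraries (SD, n = 3 each). The part of these differences in the regional values was not tested.

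The members as a group stood lower in the resistant libraries. Their median log2 difference was -0.46, a ratio of 0.729, against -0.02 for the 1204 tested genes of the rest of chromosome 2. The quartiles of the members were -0.85 and -0.05, and the 5th and 95th percentiles were -2.03 and 0.81. Of the 352 tested members, 274 (77.8%) had a difference below 0. On the rest of chromosome 2 this was 622 of 1204 (51.7%). In bulk libraries, fewer cells of a type and less RNA per cell cannot be told apart.

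The same position of the median was seen in every resistant library. Against the control mean, the members' median was -0.49 in resistant 1, -0.48 in resistant 2 and -0.45 in resistant 3 (mean -0.48 ± 0.0214, SD, n = 3). The 3 controls, each set against the mean of the other 2, gave 0.01, 0.00 and 0.02. For the rest of chromosome 2 the resistant libraries gave -0.02, -0.01 and -0.02. The 3 resistant values of the block lay below all 3 control values. The block was chosen on this contrast in these libraries, so this is a description and not support from replicates. Without resistant 1 the members' median was -0.46, with 166 members called lower and 11 higher.

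**Figure D1:**
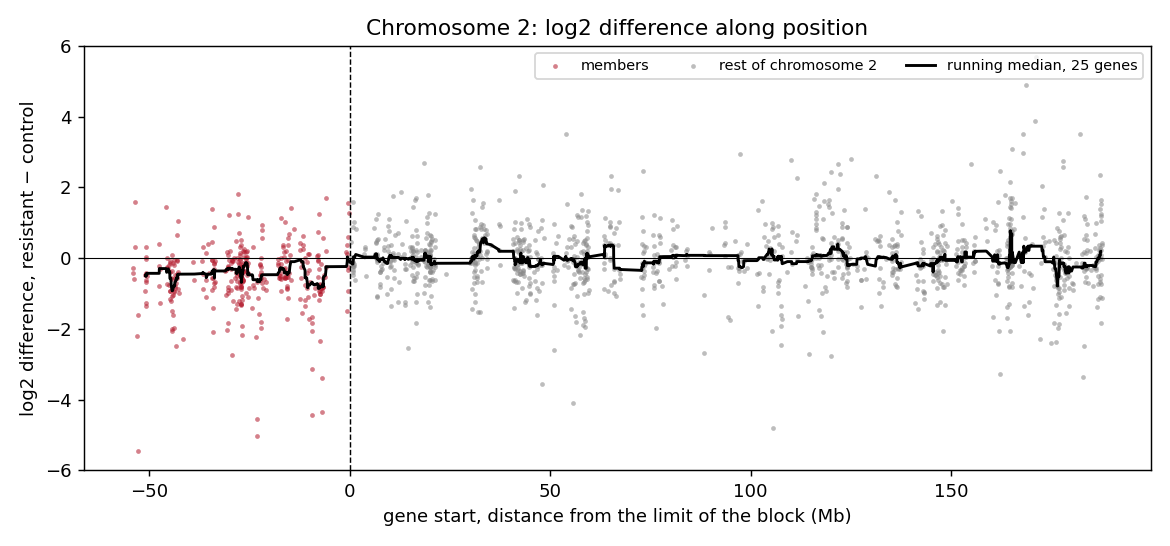
Log2 difference (resistant minus control, on log2 of the value plus 1) of each tested gene of chromosome 2, against the distance of its start from the upper limit of the block in Mb. Red points are the 352 tested members, grey points the 1204 other genes, and the black line is the running median of 25 genes. It runs below 0 in 339 of 340 windows centred in the block and in 673 of 1192 windows centred on the rest. Windows near the limit hold genes of both sides. Neighbouring windows share most of their genes.

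The shift showed in the sum of reads as well as in the median. The members summed to 228156 ± 116 normalized reads in the control libraries and to 158829 ± 2735 in the resistant libraries (SD, n = 3 each). That was 26.1 ± 0.0715% of all chromosome 2 reads in the controls and 20.5 ± 0.0341% in the resistant libraries. Per library, the share was 26.0%, 26.1% and 26.1% in the controls and 20.5%, 20.5% and 20.5% in the resistant libraries. Without the 10 members with the largest mean, the shares were 19.9 ± 0.0557% and 15.0 ± 0.246%. The difference in share was thus present with and without those 10 genes.

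At the threshold used for all genes (limma, Benjamini-Hochberg adjusted p under 0.05), 166 of the 352 tested members were called lower in the resistant libraries and 15 higher. Over all 24560 genes tested, 21.1% were called lower and 20.4% higher. The members' counts were fixed in part by how the block was chosen, so nothing is read from them against this background. The count called higher was 8 without resistant 3 and 9 without resistant 2 or without control 3, and it was 9 with DESeq2 and 8 with limma without the trend. Under median centring of each library, which moved every log2 difference by -0.13, 189 members were called lower and 7 higher. That scaling called 10379 of the 24560 genes. It moved the share of higher calls among all calls from 49.1% to 35.8%, so lower calls rose over all genes too. It shifts all genes alike, so the gap between the block and the rest of chromosome 2, -0.43, could not change. A change of 2-fold or more was called lower in 55 members and higher in 8, where 5.72% and 7.86% of all genes passed. In 188 members all 3 resistant libraries lay below all 3 controls, and in 21 all 3 lay above, where 25.4% and 24.7% of all genes did so.

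The shift was broad rather than carried by a few genes. Among members with a mean of at least 50 over the 6 libraries, 158 of 179 (88.3%) had a difference below 0, with a median of -0.52 and an interquartile range of 0.585. Of the 618 such genes of the rest of chromosome 2, 346 (56.0%) were below 0, with a median of -0.07 and an interquartile range of 0.578. The 2 distributions were thus about as wide as each other and offset along the axis. This threshold was chosen after the values were seen, and the members were chosen on this difference.

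**Figure D2:**
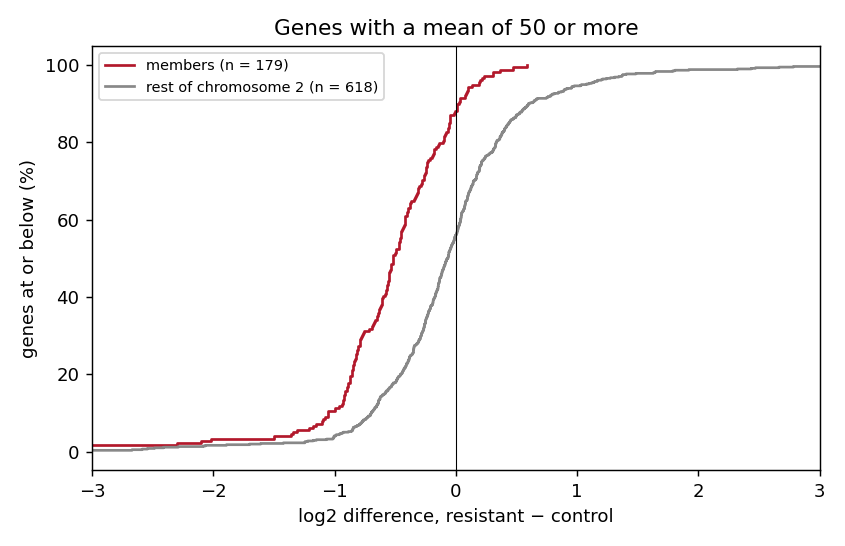
Cumulative share of genes (%) at or below each log2 difference (resistant minus control), for genes with a mean of 50 or more. The red curve of the 179 members lies to the left of the grey curve of the 618 other genes of chromosome 2, with medians of -0.52 and -0.07. The horizontal axis ends at -3 and 3.

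Along position, 10 of the 11 bins of 5 Mb had a median below 0. From the chromosome end inward, the first 4 bins had medians of -0.50, -0.31, -0.81 and -0.27. The next 3 had -0.31, -0.38 and -0.67, and the 3 after that had -0.36, -0.49 and -0.76. The last bin, from 50 to 54.4 Mb, held 10 tested genes and had a median of 0.13. On the rest of chromosome 2, 22 of 39 bins were below 0, and their medians ran from -0.34 to 0.40 in the 34 bins of at least 10 genes. A median below -0.25 was found in 10 bins of the block and in 4 of those 39.

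Resistant libraries differed among themselves by bin more than in the overall median. In the bin from 15 to 20 Mb, with 16 tested genes, the medians were -0.10, -0.28 and -0.50 in resistant 1, 2 and 3. In the bin from 40 to 45 Mb they were -0.83, -0.51 and -0.40. Between 10 and 15 Mb, a bin of 30 tested genes, they were -0.76, -0.89 and -0.74. There, 28 of the 30 genes lay below 0 and 17 were called lower, where 21.1% of all genes tested were called lower. Over windows centred in the block, the running median of 25 genes was lowest there, at -0.92 centred on KLF11. It was highest at 0.04, centred on ERLEC1 (53.8 Mb), in a window that also holds genes outside the limit. The deepest window of the rest of chromosome 2 reached -0.79 at GPR55 (231 Mb), so single windows as low as parts of the block were also found outside it.

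**Figure D3:**
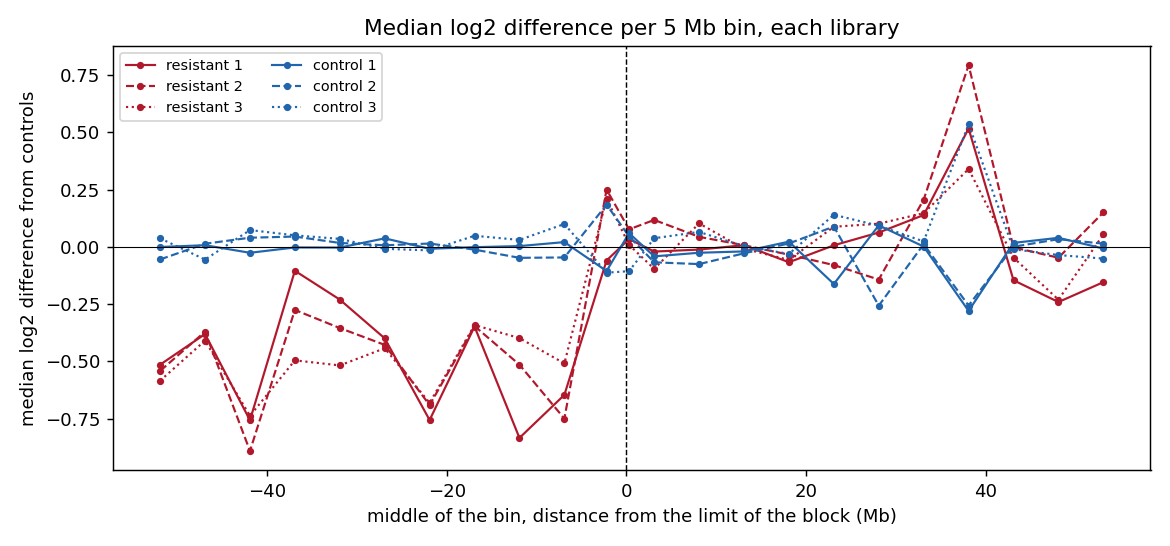
Median log2 difference from the control mean (a control against the mean of the other 2 controls) per 5 Mb bin, against the distance of the bin's middle from the limit of the block in Mb. The resistant libraries (red) lie below the controls (blue) in every bin of the block but the last, and the bin with the highest values outside the block holds 5 genes.

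The limit of the block did not match the best single split of chromosome 2, whose position depended on the genes used. The single split of chromosome 2 that left the smallest absolute deviations on its 2 sides lay between FOXN2 (start 48314637) and PPP1R21-DT (start 48440043). On the left of it 339 genes had a median of -0.47, and on the right 1217 genes had a median of -0.02. The same boundary was found from resistant 1 and from resistant 2 alone. From resistant 3 alone it lay between PPP1R21 (48440598) and STON1 (48529383). With genes of a mean of at least 50 it moved to between CHAC2 (53767792) and ERLEC1 (53787044).

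The 2 positions are separated by few genes. Right of the first split the block held 17 genes, of which 13 were tested, with a median of 0.16, 3 called lower and 3 higher. The 5 of them with a mean of at least 50 had a median of -0.24, with 3 below 0, 2 called lower and 1 higher. The sign of the median thus differed between the 2 sets, but these are too few genes to read a direction from. Left of the split were 441 genes, 339 of them tested, with 163 called lower and 12 higher. Over all genes tested, 21.1% were called lower and 20.4% higher. A stretch of 2.70 Mb without a gene start in the files ends at ASB3 (53.5 Mb), so an edge inside it cannot be placed from these values. Other such stretches in the block were 3.12 Mb before NRIR (6.83 Mb) and 2.65 Mb before CRIM1-DT (36.4 Mb).

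At the limit itself, none of the 3 nearest tested genes on either side was called lower. Inside it lay ACYP2, a muscle-type acylphosphatase, with 53.4, 61.3 and 50.1 in the controls and 83.6, 74.8 and 89.8 in the resistant libraries. The pseudogene HMGB1P31 (means 2.75 and 7.56) and the long intergenic ENSG00000272156 (means 5.72 and 16.4) both overlap ACYP2. Outside the limit, SPTBN1, which encodes a spectrin of the membrane skeleton, had means of 6593 ± 551 and 6746 ± 227 (SD, n = 3) and a log2 difference of 0.04. SPTBN1-AS2 and EML6 stood at 0.46 and -0.19. The 3 genes inside stood at 0.58, 1.55 and 1.27, where HMGB1P31 was not called and the other 2 were called higher. These calls were not firm. ACYP2 lost its call under median centring and without resistant 3, at 0.52. ENSG00000272156 lost it without the trend, without resistant 2 (1.04), without resistant 3 (1.09) and without control 1 (1.21). HMGB1P31 was called higher with no filter, with the replicate block and without control 1 (2.23).

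Chromosome 2 as a whole had a median of -0.11, and the 22 other chromosomes had medians from -0.35 to 0.16. Chromosomes 5 and 17 had the lowest, at -0.35 and -0.26, with 39.4% and 35.4% of their tested genes called lower. The block is a piece of a chromosome chosen for its low values, so its median is not comparable with those of whole chromosomes.

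The median difference was not the same in every gene class and level. Protein-coding members (228 of 243 tested) had a median of -0.53, with 142 called lower and 10 higher. On the rest of chromosome 2, 771 protein-coding genes were tested, with a median of -0.04, 212 called lower and 170 higher. Long intergenic members had -0.43 (47 tested), antisense members -0.17 (33 tested) and processed pseudogenes -0.03, with none of 16 called. Of the 97 processed pseudogenes tested on the rest of chromosome 2, 7 were called lower and 6 higher. By level, members with a mean under 10 had a median of -0.27, those from 10 to 100 had -0.35, those from 100 to 1000 had -0.54 and those of 1000 or more had -0.53. The same levels had 0.03, 0.10, -0.06 and -0.10 on the rest of chromosome 2, so a part of this pattern was not particular to the block. On log2 of a value plus 1, differences of low genes are understated. The median was -0.43 on the plus and -0.47 on the minus strand. Of 176 tested members on each, 82 were called lower and 12 higher on the plus strand, and 84 and 3 on the minus strand. The rest of chromosome 2 had 136 and 117 of 636 on the plus strand. On the minus strand it had 108 and 98 of 568.

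Across the 352 tested members, the correlation of the log2 difference with level was -0.09 (Pearson's r) and -0.13 (Spearman's rho). With exonic length it was -0.12 and -0.11, and with position 0.05 and 0.06. For the 1204 tested genes outside the block, level gave -0.08 and -0.08, length 0.02 and 0.02, and position 0.01 and -0.02. These are correlations across genes of the same 6 libraries, and genes are not independent replicates. The 2 parts of the chromosome were alike in make-up, with 8.42 genes per Mb in the block and 8.01 outside it. Protein-coding genes made up 53.1% and 54.4%, and 35.2% and 37.0% of the genes had a mean of at least 100. Of the tested members, 153 overlap another gene (median -0.40) and 199 do not (median -0.52). The counting is not stated to use strand, so reads of overlapping genes cannot be told apart.

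Long runs of neighbours lay below 0. The block was chosen for low values. Among genes with a mean of at least 50, 56.0% of those on the rest of chromosome 2 were below 0, and 88.3% of the members. Long runs follow in part from that share, so they are given as a description only. Among members with a mean of at least 50, 27 neighbours in a row had a difference below 0 from HADHA (26.2 Mb) to SLC4A1AP (27.7 Mb), with a median of -0.63. A run of 22 went from LBH (30.2 Mb) to PRKD3 (37.3 Mb), and a run of 17, with a median of -0.83, ended at GEN1 (17.8 Mb). The run nearest the limit held 13 genes, from PIGF (46.6 Mb) to CHAC2 (53.8 Mb), with a median of -0.81. Members above 0 in the same set came singly, apart from the neighbours FOSL2 and PPP1CB.

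Lists of members by role were used to describe which functions the shift reached, and the lists were chosen with earlier results of these data known, from members selected on these values. Over all genes tested 21.1% were called lower and 20.4% higher, and over the tested members 47.2% and 4.26%, so no list count below is evidence of a direction. Genome maintenance and cell division genes had 11 of 12 tested members called lower and none higher, with a median of -0.84. RRM2, the regulated subunit of the enzyme that makes deoxyribonucleotides (ENSG00000171848, chromosome 2, 10120698 to 10131419), stood at 1857, 1878 and 2010 in the controls. In the resistant libraries it stood at 450, 504 and 463. The 2 groups did not overlap, and the log2 difference was -2.02 ± 0.07 (SE).

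MSH6, a mismatch repair gene (47695530 to 47810101) had 2686, 2604 and 2692 in the controls and 1478, 1528 and 1536 in the resistant libraries, a log2 difference of -0.81. MSH6 overlaps FBXO11, which stood at -0.55. CENPA, the centromeric histone, stood at -1.22, and SMC6, of a complex that maintains chromosome structure, at -0.45. SMC6 overlaps GEN1, a nuclease that resolves recombination junctions, at -0.87. MEMO1, at -0.19, was the member not called. RAD51AP2 is not analysed here.

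All 14 tested RNA processing and translation members were called lower, with a median of -0.81 and a range from -1.11 to -0.40. PUM2, a repressor that binds messenger RNA, had 2480, 2468 and 2431 in the controls and 1669, 1584 and 1740 in the resistant libraries. DDX1, an RNA helicase, had means of 2468 ± 6.89 and 1613 ± 44.0. WDR43, a ribosome biogenesis factor, had means of 1688 ± 81.0 and 782 ± 10.8 (SD, n = 3), the lowest difference of the list. SRSF7, a splicing factor, stood at -0.85. SNX17, at -0.83, is counted among the 14 but is a sorting nexin of endosomes and not an RNA factor. RPS7, a protein of the small ribosomal subunit and on none of the lists, had 8406, 8184 and 8367 in the controls and 6038, 5191 and 4947 in the resistant libraries. Its resistant 1 value was the highest of the resistant libraries and still below every control.

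Kinases, GTPases and receptor signalling genes had 18 of 24 tested members called lower, none higher, and a median of -0.49. YWHAQ, a 14-3-3 adaptor protein (ENSG00000134308, 9583972 to 9631014), had 10729, 11056 and 11440 in the controls and 5092, 4914 and 4929 in the resistant libraries, a log2 difference of -1.15 ± 0.06 (SE). CALM2, a calmodulin gene, had means of 6861 ± 193 and 3788 ± 195 (SD, n = 3). RPS7, CALM2 and YWHAQ have related copies elsewhere, and how the authors counted shared reads is not given in the sources used here. PPM1G, a phosphatase, stood at -1.18, RHOB, a small GTPase, at -0.82, and SOS1, the exchange factor that activates RAS, at -0.05, which was not called. Of the fusion partners, ALK had a mean of 3.91 over all 6 libraries and was not called. EML4, a microtubule-binding protein, had means of 1524 ± 21.3 and 1037 ± 73.7.

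Transcription and chromatin genes had 10 of 18 tested members called lower, none higher, and a median of -0.55. Median centring gave 12 lower, and quantile normalization gave 2 higher, FOSL2 and EPAS1. GTF3C2, a subunit of a factor of RNA polymerase III, had means of 1258 ± 22.4 and 720 ± 35.3 (SD, n = 3). ZFP36L2, which promotes decay of messenger RNA, stood at -1.35, and KLF11 at -0.83. FOSL2 and EPAS1, the list's genes with most reads, stood at 0.03 and 0.07 and were not called. Under quantile normalization they stood at 0.15 and 0.20 and were called higher, and under median centring their differences were below 0. FOSL2, a component of AP-1, had 6890, 6524 and 6619 in the controls and 7363, 6548 and 6567 in the resistant libraries. EPAS1, the hypoxia-inducible factor 2 alpha subunit, had 5786, 5678 and 5052 and then 7134, 5075 and 5325, where resistant 1 was above all other libraries. GTF2A1L, MYCN and SOX11 are not analysed here.

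Metabolism and mitochondria genes had 17 of 22 tested members called lower, 2 called higher, and a median of -0.58. The count called higher was 1 under median centring and 4 under quantile normalization. LRPPRC, which stabilises mitochondrial messenger RNA (ENSG00000138095, 43886508 to 43996005), had 4816, 4938 and 5128 in the controls and 2335, 2310 and 2322 in the resistant libraries, a log2 difference of -1.09 ± 0.06 (SE). HADHA, a subunit of the mitochondrial trifunctional protein, had means of 4488 ± 113 and 2851 ± 22.7 and overlaps HADHB, its partner subunit, at -0.52. ODC1, which starts polyamine synthesis, stood at -0.92, and SLC5A6, the vitamin transporter for biotin and pantothenate, at -1.31. CYP1B1, a cytochrome P450 and the list's gene with most reads, stood at 10277, 10297 and 10445 in the controls and at 10116, 10628 and 10919 in the resistant libraries. Those 2 groups overlap, and under quantile normalization CYP1B1 was called higher, at 0.19. QPCT and ACYP2 were called higher, at 1.15 and 0.58, and ACYP2 was not called under median centring.

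Vesicle traffic, secretory pathway and cytoskeleton genes had 9 of 17 tested members called lower, 2 called higher, and a median of -0.34. PDIA6, a disulfide isomerase of the endoplasmic reticulum, had means of 5998 ± 153 and 3470 ± 268 (SD, n = 3), and MCFD2, a cofactor of cargo transport out of it, had 3294 ± 97.4 and 1999 ± 41.4. LAPTM4A, a lysosomal membrane protein, stood at -0.05 and KIDINS220, a scaffold of neurotrophin receptors, at 0.00, and neither was called. LAPTM4A was called lower under median centring, at -0.18. CDC42EP3, an effector of the GTPase CDC42, was called higher at 0.36, though not by limma without the trend. EHD3, an endosomal recycling protein, had a mean of 40.7 ± 2.34 in the controls and 1.02, 0 and 0 in the resistant libraries. STON1 was called higher at 1.71.

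Genes best known from other tissues had 9 members, of which 6 were tested. GCKR, the liver glucokinase regulator, was called lower with means of 12.8 and 2.24. KCNK3, a potassium channel, and OTOF, a hair cell protein, were called higher from means of 32.4 and 0.693 to 53.6 and 5.41. Neither call was firm. KCNK3 lost it in 7 of 17 settings, among them median centring and leaving out resistant 1 (0.61), resistant 3 (0.65), control 2 (0.67) or control 3 (0.61). OTOF lost it in 6 of 12, among them median centring, DESeq2 and leaving out control 1 or control 3 (1.55 each). APOB, ABCG5 and SLC8A1 did not reach the level for the test, and DPYSL5, FSHR, LHCGR, MYT1L and POMC are not analysed here. In 9 tested members all 3 resistant libraries were at 0, and in 0 tested members all 3 control libraries were. A gene at 0 throughout 1 group reaches the level for the test only through all 3 libraries of the other. How often this occurs over all genes was not tested. With those 9 genes set to the bound that 3 reads over the group allow, the members' median stayed at -0.46. The bound moves few genes, so the median could hardly change, and nothing is read from this.

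**Figure D4:**
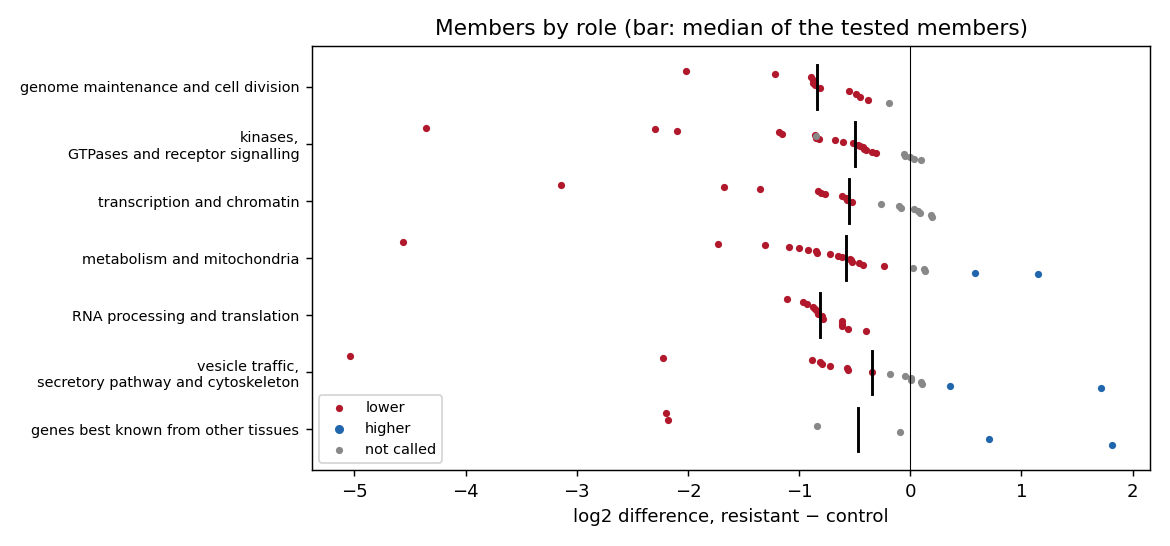
Log2 difference (resistant minus control) of each tested member by role, coloured by call, with a bar at the median of each list. The list medians run from -0.84 to -0.34. Lists were chosen with earlier results of these data known.

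The 4 largest falls among protein-coding members with a mean of at least 100 were much larger than the members' median of -0.46. PXDN, a peroxidase that cross-links basement membrane collagen (ENSG00000130508, 1631887 to 1744852), had 460.0, 481 and 412 in the controls and 10.2, 6.46 and 11.8 in the resistant libraries, a log2 difference of -5.46 ± 0.21 (SE). XDH, xanthine dehydrogenase (31334321 to 31414715), had 536, 514 and 484 and then 13.3, 25.8 and 25.6. EPCAM, an epithelial adhesion molecule (47345158 to 47387601), had 391, 353 and 391 and then 17.3, 15.7 and 19.7. TRIB2, a pseudokinase (12716889 to 12742734), had 1024, 944 and 1025 and then 200, 213 and 192. All 4 lay below the 5th percentile of the members, -2.03. EHD3, next to XDH, was called lower as well. EPCAM also serves as a marker of the epithelial list, whose genes moved both ways. On that list CDH1, an adhesion protein of epithelia, moved from a mean of 368 to 116 and KRT7 had means of 13355 and 12803. MUC1 and NKX2-1 of that list were called higher, at 0.91 and 0.69. SDC1, a heparan sulfate proteoglycan of the cell surface, stood at -2.10.

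The largest rises among members with a mean of at least 100 were small beside these falls. CDC42EP3 had 2164, 2118 and 2021 in the controls and 3200, 2435 and 2522 in the resistant libraries, and resistant 1 gave the highest value. KCNS3, a potassium channel subunit, stood at 0.31 with means of 266 ± 37.2 and 328 ± 16.7 (SD, n = 3). It lost its call in 6 of 17 settings, among them median centring, DESeq2 and leaving out resistant 2 (0.28), control 1 (0.20) or control 3 (0.31). YPEL5 (30146941 to 30160533) had 1276, 1369 and 1406 in the controls and 1730, 1593 and 1687 in the resistant libraries. NCOA1, a nuclear receptor coactivator, stood at 0.20 and was not called, but was called higher without resistant 1, at 0.28.

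The 2 genes with the highest mean of each bin include members called lower, members not called and 1 called higher. ACP1, a low molecular weight phosphatase, stood at -0.42 and HPCAL1, a calcium sensor, at -1.06. BIRC6, an inhibitor of apoptosis and ubiquitin ligase, stood at -0.38. CRIM1, a transmembrane regulator of growth factors, stood at -0.02, and its control and resistant values overlap. PPP1CB had 3385, 3755 and 4102 in the controls and 4385, 3494 and 3673 in the resistant libraries, where resistant 1 was the highest. In the last bin, PSME4, a proteasome activator, had 2054, 2032 and 2043 and then 1511, 1841 and 1863, and was not called lower under quantile normalization or without the trend. ERLEC1, a lectin of the endoplasmic reticulum, had means of 831 ± 52.0 and 891 ± 52.9 (SD, n = 3).

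**Figure D5:**
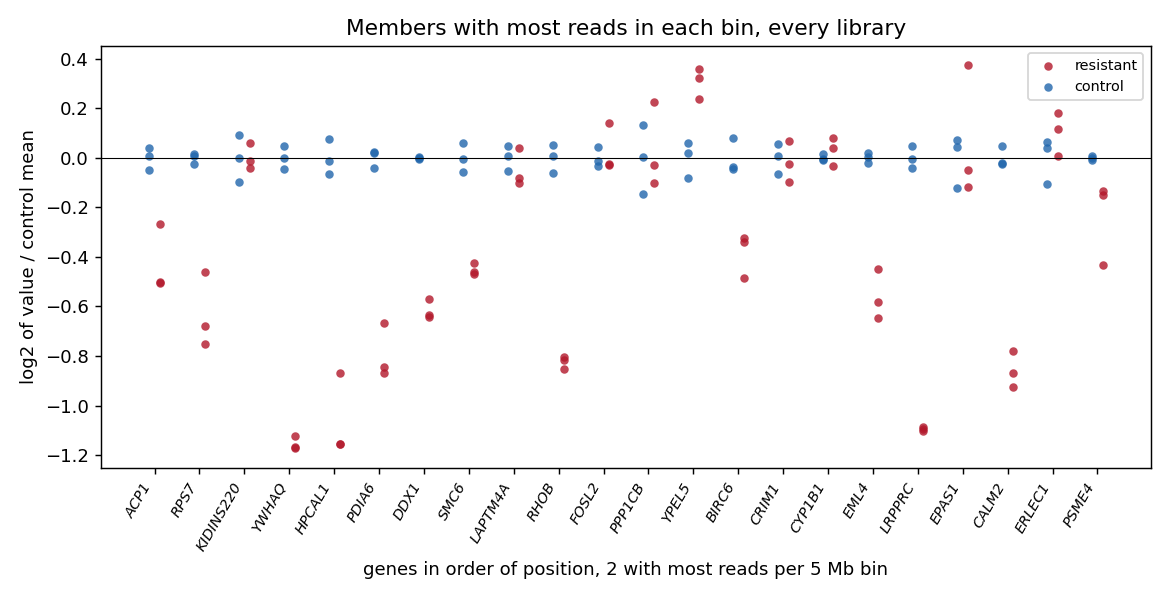
Log2 of each library's value over the control mean for the 2 protein-coding members with the highest mean in each 5 Mb bin, in order of position, with controls in blue and resistant libraries in red. Of the 22 genes, YWHAQ, HPCAL1 and LRPPRC have the lowest resistant means, and KIDINS220, LAPTM4A, FOSL2, PPP1CB, CRIM1, CYP1B1, EPAS1 and ERLEC1 have resistant values that overlap the controls.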

How the data were processed

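RNA-seq was made from total RNA of 3 resistant and 3 control libraries. The deposited signal of each gene is a read count divided by 1 size factor per library: every value was a whole multiple of the value of 1 read (100% of values, within 0.001 reads). Per the submitters' processing notes, reads were handled on GRCh38. Which aligner, counter and scaling tool were used is not given in the sources used here.

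Because the deposited values are normalized, limma 3.58.1 (trend, robust, two-sided) was run on log2(value + 1) over the 24560 genes that reached 1 in 3 or more libraries. Adjusted p-values are Benjamini-Hochberg over these genes, with a threshold of 0.05. A fold change on this scale understates the change of low genes. The p-values behind the calls measure only the spread between these libraries. On recovered reads, edgeR 4.0.16 called 10159 genes and DESeq2 1.42.0 called 8885, against 10204 with limma. R 4.3.3 and Python 3.11.15 were used.

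Members and lists were chosen with earlier results of these data known. Named genes were the 2 protein-coding members with the highest mean in each 5 Mb bin, the 3 highest of each role list, the 3 nearest on each side of the limit, and the 4 largest falls and rises among protein-coding members with a mean of at least 100. Further genes were named after their values were seen, and some items are not reported here. Symbols were found for 453 of 458 members, and the fits were checked on simulated data. Same-numbered libraries did not deviate together, so no pairing was used. Alternatives changed the scaling, filter, pseudocount, variance model, count model, gene class, bin width, replicate block and the libraries used.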

Additional observations from a re-analysis of the deposited data

How the results depend on the processing

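The members' median stayed below that of the rest of chromosome 2 under all settings run. Median centring, the fit without the trend and the replicate block could not change the difference of the medians. Median centring gave medians of -0.59 and -0.16, with 7 members called higher and 35.8% of all calls higher. Quantile normalization put the rest of chromosome 2 at -0.036. With no filter the medians were -0.41 and -0.011 (difference -0.40) and the split lay at 48.3 Mb. A minimum of 5 gave -0.012 for the rest and a difference of -0.46, and a mean of at least 10 gave -0.49 and -0.045. A pseudocount of 0.1 gave -0.49 and -0.032 (difference -0.46), and 10 gave -0.30 and -0.0088 (difference -0.29), as a larger pseudocount shrinks low genes. Protein-coding genes alone gave -0.53 and -0.045 (difference -0.49). Chosen after seeing the data, a mean of at least 50 gave -0.52 and -0.069 with the split at 53.8 Mb, and members without an overlapping gene gave -0.52 (difference -0.50). Without the 10 members with the largest mean, the share of chromosome 2 reads differed by -4.84 percentage points. Members called higher were 8 without the trend and 9 with DESeq2.

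Leaving out 1 library at a time gave member medians of -0.47 to -0.42, medians of the rest of -0.036 to 0.0050, 139 to 166 members called lower and 8 to 11 called higher. The count called higher fell furthest, to 8, without resistant 3, to 9 without resistant 2 and to 9 without control 3. With a replicate block, 163 members were called lower and 16 higher, and 10175 genes in all. The correlations of same-numbered libraries were -0.00148, 0.000115 and 0.00671. Of the 166 members called lower, 137 to 166 remained so under each setting. Named genes were followed through up to 17 settings, without the protein-coding fit and without settings that filtered the gene out. Of 45 named genes, 32 kept their call in all of these, 36 of 758 gene settings changed a call and none reversed it. Low depth limits the 110 tested members with a mean under 10. The causes of these changes were not tested, other than the pseudocount.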
